A study of Mus musculus with 8 samples.

Results

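The measurements below concern the mRNAs of 7 assembly factors of respiratory complex III in cultured mouse neurons with and without NUAK1. They are Brawnin (1190007I07Rik, also called Uqcc6), Uqcc1, Uqcc2, Uqcc3, Bcs1l, Lyrm7 and Ttc19. The 7 genes were chosen by name, with earlier results of these data known, and each had 1 row among the 32726 rows of the count table. The study had already reported Brawnin as lower in KO in these cultures. All 7 passed the filter on low counts, which kept 16272 genes. The cultures came from cortical neurons of embryonic day 15.5 mice, grown for 5 days in serum-free medium, and the labels give the tissue as cortex or hippocampus. There were 4 Nuak1 knockout (KO) and 4 wild type (WT) libraries of poly-A RNA, numbered 1 to 4 in each genotype. The study keeps its mice on a C57Bl/6JRj background and describes both a floxed Nuak1 line, Nuak1 tm1a(KOMP)Wtsi, and a constitutive Nuak1 allele, whereas the labels say only KO or WT. The study's methods give 4 animals per condition for RNA sequencing, and the labels tie no library to an animal, so p-values measure the spread between these libraries.

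NUAK1 is a kinase related to AMPK that acts in growing axons, and its loss of mRNA is a check of the labels. Nuak1 was between 1.96 and 2.72 CPM (counts scaled to a library total of 1000000) in the KO libraries and between 51.6 and 82.6 CPM in the WT libraries. Complex III, also called the cytochrome bc1 complex, passes electrons from ubiquinol to cytochrome c in the inner mitochondrial membrane and pumps protons as it does so. Its catalytic subunits are cytochrome b, which the mitochondrial genome encodes, and cytochrome c1 and the Rieske iron-sulfur protein, which the nucleus encodes. Assembly begins with newly made cytochrome b and ends with insertion of the Rieske protein, and proteins that are not part of the finished enzyme attend each step. Uqcc1, Uqcc2 and Uqcc3 attend cytochrome b and the early intermediates, Bcs1l and Lyrm7 bring in the Rieske protein, and Ttc19 clears fragments left after that insertion. Brawnin is a microprotein of the inner membrane that is needed for complex III to form.

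The coding sequence of Brawnin is given because its length and its copies elsewhere in the genome set how well its mRNA can be counted. In the annotation used here (GENCODE, NCBIM37 build) Brawnin had 1 coding transcript of 748 bases, and its coding sequence had 204 bases, or 68 codons with the stop codon. The capitals below mark the 120 bases that lie in a window of 50 bases found again, letter for letter, elsewhere in the genome, and the other 84 bases are in lower case.
Brawnin coding sequence: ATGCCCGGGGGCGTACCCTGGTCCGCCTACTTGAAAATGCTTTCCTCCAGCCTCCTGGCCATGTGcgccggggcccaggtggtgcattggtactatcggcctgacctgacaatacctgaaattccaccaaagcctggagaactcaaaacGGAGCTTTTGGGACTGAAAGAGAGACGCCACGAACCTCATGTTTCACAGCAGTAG

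Over the whole Brawnin transcript, 58 of 699 windows of 50 bases (8.30%) occurred again in the genome. Of these windows, 45 (6.44% of the 699) occurred in 1810014B01Rik, a pseudogene that lies 4.06 Mb from Brawnin on chromosome 10 (GRCm38). None of the 649 windows of 100 bases did so. Uqcc1 and Uqcc2 had 0.729% and 0.887% of such windows at 50 bases, and Uqcc3, Bcs1l, Lyrm7 and Ttc19 had none. The study's methods give reads of 50 bases for these cultures and the labels give paired reads of 100 bases, and only reads aligned to a single place were counted. No row of the count table could be matched to 1810014B01Rik, so whether reads shifted between Brawnin and its pseudogene was not tested. The Brawnin count is therefore uncertain for shared reads at 50 bases. The study describes several splice forms of Brawnin, and counts per gene cannot separate them.

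Total counts ranged from 31247078 to 67155004 per library. Lane A held KO1, KO4, WT1 and WT3, and lane B held the rest. The labels also give a strain label, which was BJ in KO1, KO2 and KO3, BK in KO4, WT2 and WT4, BO in WT1 and BQ in WT3. KO1 and WT1 stood apart from the other 6 libraries, with values of −0.565 and −0.617 on the surrogate variable (an estimate of unwanted variation) against 0.0453 to 0.377 in the others. Summed neuron markers were at 6683 to 7532 CPM in KO cultures and 6651 to 7591 CPM in WT cultures, all 10 markers were tested, and none passed the adjusted threshold. Astrocyte markers (6 genes) summed to 585 to 1205 CPM in KO cultures and 546 to 948 CPM in WT cultures. Microglial markers (6 genes) summed to 1.90 to 18.3 CPM in KO cultures and 2.18 to 8.40 CPM in WT cultures, with Tmem119 at no more than 3 counts in any library. Interneuron, progenitor and oligodendrocyte lineage markers (6 genes each) summed to 195 to 338, 281 to 386 and 485 to 601 CPM in KO cultures. In WT cultures they summed to 176 to 283, 182 to 315 and 454 to 581 CPM. Endothelial and fibroblast markers (7 genes) summed to 11.7 to 20.9 CPM in KO cultures and 6.23 to 34.8 CPM in WT cultures. All 6 astrocyte markers and 3 of the 6 microglial markers were tested. No tested marker of these lists passed the adjusted threshold, and the part of these cell types in the results below was not tested.

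Of the 7 assembly factors, Brawnin passed the test between genotypes, and its mRNA was lower in KO; the other 6 did not pass it. Brawnin (ENSMUSG00000063320, GRCm38 chr10:82619851-82623228) was read 35, 35, 43 and 57 times in the KO libraries (1 to 4) and 107, 213, 132 and 112 times in the WT libraries (1 to 4). Scaled to depth, these were 1.01, 1.01, 0.825 and 1.41 CPM in KO cultures and 3.42, 3.17, 2.77 and 2.95 CPM in WT cultures. The genotypes did not overlap. Each WT library was between 1.97 and 4.15 times each KO library over the 16 pairs. The upper limit of the Wilson 95% interval in KO4, the highest KO library, was 1.82 CPM, and the lower limit in WT3, the lowest WT library, was 2.34 CPM. Such intervals cover counting error only.

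The mean Brawnin level was 1.06 ± 0.246 CPM in KO cultures and 3.08 ± 0.283 CPM in WT cultures (SD, n = 4 each). The log2 fold change was −1.57 (SE 0.20, 95% interval −2.02 to −1.12, adjusted p 0.0359, edgeR quasi-likelihood test with Benjamini-Hochberg adjustment over all 16272 genes). In percent, the change was −66.3% with an interval from −75.3% to −54.0%. In these bulk libraries, fewer cells that express a gene and less RNA per cell cannot be told apart. The study had singled out Brawnin from these same libraries, so the counts of assembly factors called or not overlapping are no separate support for it. Of the 16272 tested genes, 8 (0.0492%) passed the adjusted threshold, 6 of them lower in KO (0.0369%), against 1 of the 7 assembly factors. CPM values did not overlap between the genotypes for 2.4% of tested genes in either direction, with KO the lower for 0.86%, and for 1 of the 7 assembly factors. DESeq2 and limma-voom, each with the same surrogate variable, also called 1 of the 7, where DESeq2 called 1.29% of the 13117 genes it gave an adjusted p and limma-voom called 0.0492% of the 16272 genes.

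**Figure D1:**
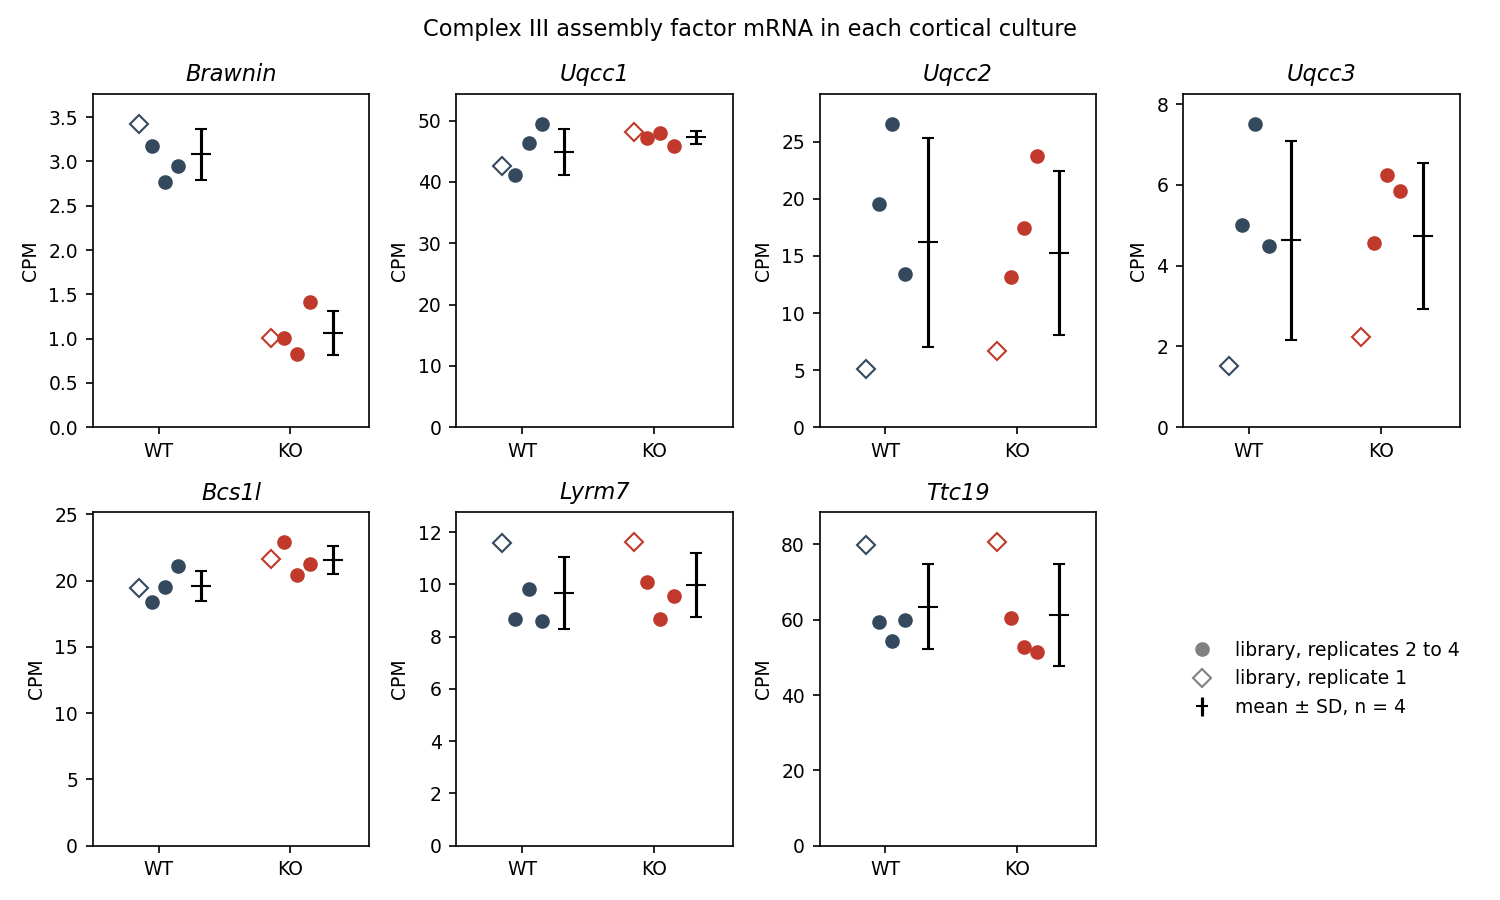
CPM of the 7 assembly factors (y axes, each from 0) in WT and KO cultures (x axes), with 1 point per library, replicate 1 as an open diamond, and bars for the mean and SD of 4 libraries. Brawnin is at 0.825 to 1.41 CPM in KO cultures and 2.77 to 3.42 CPM in WT cultures, the other 6 genes overlap between genotypes, and Uqcc2 and Uqcc3 are lowest in replicate 1 of each genotype.

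The Brawnin call depended on the model, whereas its size changed less. With all 8 libraries, the edgeR adjusted p was 0.0992 without a surrogate variable, 0.222 with a lane term and 0.246 with a replicate term. Fits with a lane or replicate term held no surrogate variable. On lane A alone, Brawnin averaged 1.21 CPM in 2 KO libraries and 3.10 CPM in 2 WT libraries, with a log2 fold change of −1.38 (edgeR adjusted p 0.9999). On lane B alone the means were 0.918 and 3.06 CPM, with a log2 fold change of −1.82 (edgeR adjusted p 0.00402). The lack of overlap within each lane follows from that over all libraries and is no separate result. The difference between the lanes was −0.43 on the log2 scale (SE 0.41, p 0.327 unadjusted, adjusted p 0.99998, edgeR interaction term). For this interaction, 0 of the 7 assembly factors passed the adjusted threshold and 0 had an unadjusted p under 0.05, where 0% and 1.57% of all tested genes did so.

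Among libraries with the strain label BK, Brawnin was at 1.41 CPM in KO4 and at 3.17 and 2.95 CPM in WT cultures2 and WT4. With the strain label as a term, a fit in which these 3 libraries carry the genotype difference, the log2 fold change was −1.14 (95% interval −1.85 to −0.42, edgeR adjusted p 0.9999). Without KO1 and WT1 it was −1.49 (adjusted p 0.536, edgeR, no surrogate variable). The adjusted p was also above the threshold when KO1, KO2, KO3, WT1, WT2 or WT4 was left out, between 0.0599 without WT4 and 0.499 without WT1. It was 0.0160 without KO4 and 0.0143 without WT3. Across the 22 alternatives Brawnin was lower in KO in all 22 and past the adjusted threshold in 10, with log2 fold changes from −1.82 to −1.14. Its values did not overlap between genotypes, so the constant direction over refits of the same libraries is no separate result. In the 21 fits that gave a 95% interval, the interval lay below 0 in all 21.

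**Figure D2:**
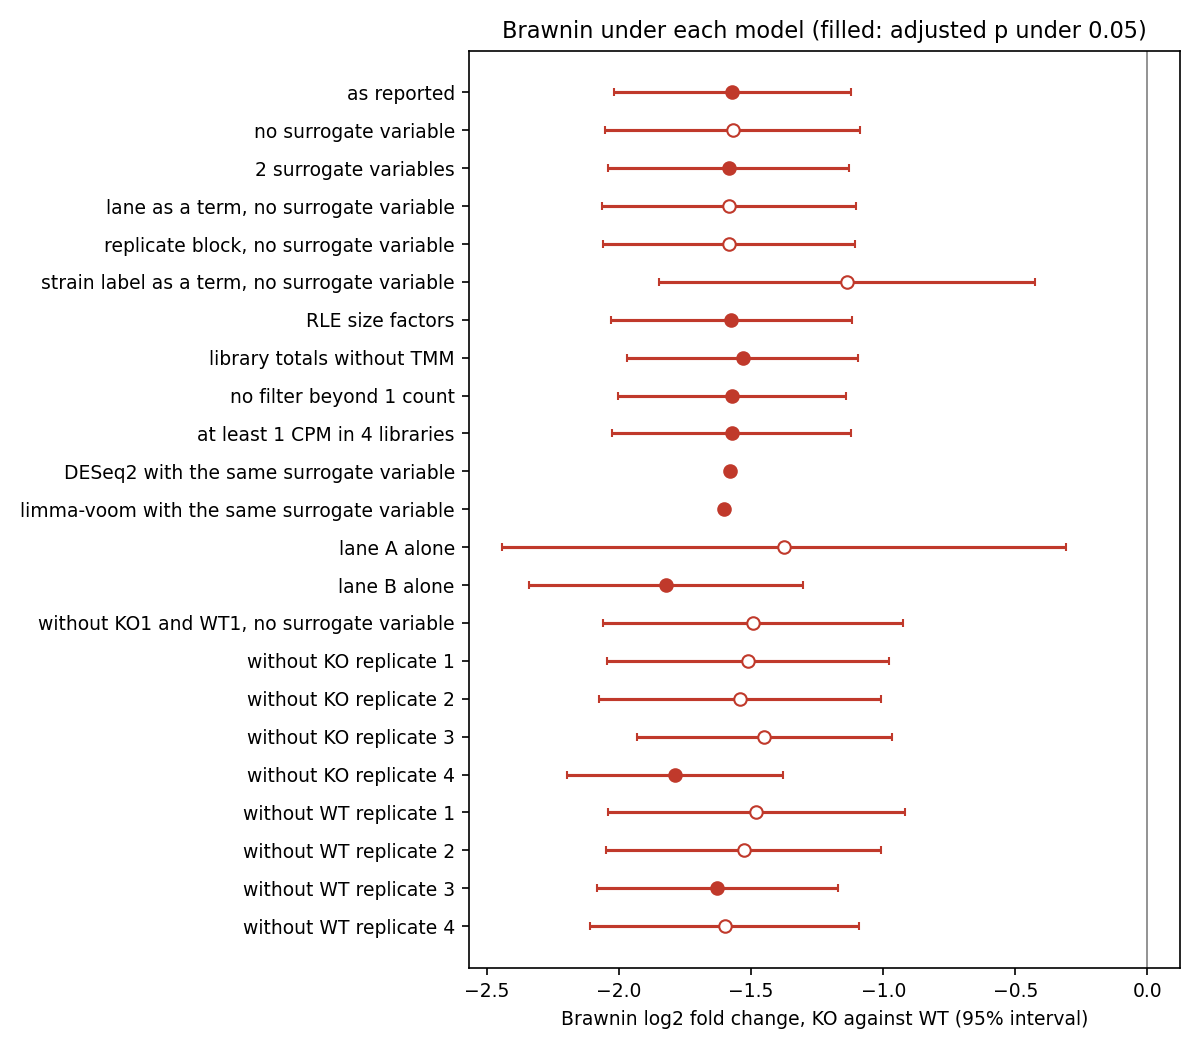
Brawnin log2 fold change, KO against WT (x axis), under the reported model and each of 22 alternatives (rows), with 95% intervals except for DESeq2 and limma-voom, where only the value is drawn. Filled points have an adjusted p under 0.05. All points lie between −1.82 and −1.14, and 10 of the 22 alternatives are filled.

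The other 6 assembly factors give a reference for Brawnin inside each library, which needs no scaling to library size. Per 100 reads of Bcs1l, Brawnin had 4.04 to 6.62 reads in KO and 14.0 to 17.6 reads in WT. Per 100 reads of Lyrm7 it had 8.66 to 14.7 reads in KO and 28.2 to 36.5 in WT. Per 100 reads of Uqcc1 it had 1.72 to 3.07 reads in KO and 5.96 to 8.03 in WT. Per 100 reads of Ttc19 it had 1.25 to 2.74 reads in KO and 4.28 to 5.34 in WT. The genotypes did not overlap in these 4 ratios. They did overlap in the ratios to Uqcc2 and Uqcc3, the members that varied most, relative to their mean, between libraries of 1 genotype.

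Uqcc1 and Uqcc2 form a complex that attends newly made cytochrome b. Uqcc1 (ENSMUSG00000005882, chr2:155846886-155930310) was at 45.8 to 48.1 CPM in KO cultures and 41.1 to 49.5 CPM in WT cultures, with means of 47.3 ± 1.01 and 44.9 ± 3.76 CPM (SD, n = 4 each). Its log2 fold change was 0.04 (SE 0.06, 95% interval −0.10 to 0.18, edgeR adjusted p 0.843). Uqcc2 (ENSMUSG00000024208, chr17:27122665-27133891) was at 6.64, 13.2, 17.5 and 23.8 CPM in KO1 to KO4 and at 5.12, 19.6, 26.6 and 13.5 CPM in WT cultures1 to WT4. Replicate 1 was the lowest library of each genotype, and the genotypes overlapped over most of their range. The Uqcc2 log2 fold change was 0.01 (SE 0.14, 95% interval −0.30 to 0.31, edgeR adjusted p 0.993), and its sign changed between alternatives.

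Uqcc3 stabilises cytochrome b after its translation. Uqcc3 (ENSMUSG00000071654, chr19:8880014-8880933) was at 2.24, 4.57, 6.25 and 5.86 CPM in KO1 to KO4 and at 1.504, 5.003, 7.51 and 4.48 CPM in WT cultures1 to WT4. Replicate 1 was again the lowest library of each genotype. The log2 fold change was 0.13 (SE 0.13, 95% interval −0.15 to 0.42, edgeR adjusted p 0.735), and 4 of 22 alternatives turned its sign. In percent, the interval reaches from −9.90% to 33.5%.

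Bcs1l is the ATPase that moves the folded Rieske protein across the inner membrane, and Lyrm7 is the chaperone that holds the Rieske protein before that step. Bcs1l (ENSMUSG00000026172, chr1:74588289-74592443) was at 20.4 to 22.9 CPM in KO cultures and 18.4 to 21.1 CPM in WT cultures, with a log2 fold change of 0.10 (SE 0.07, 95% interval −0.05 to 0.25, edgeR adjusted p 0.624). Lyrm7 (ENSMUSG00000020268, chr11:54826866-54860921) was at 8.67 to 11.6 CPM in KO cultures and 8.61 to 11.6 CPM in WT cultures, with a log2 fold change of −0.00082 (SE 0.10, 95% interval −0.23 to 0.22, edgeR adjusted p 0.998). For Bcs1l the interval reaches from −3.61% to 19.3%, and for Lyrm7 from −14.5% to 16.8%.

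Ttc19 binds complex III and removes fragments of the Rieske protein. Ttc19 (ENSMUSG00000042298, chr11:62281429-62331879) was at 80.6, 60.4, 52.8 and 51.4 CPM in KO1 to KO4 and at 79.9, 59.4, 54.5 and 59.9 CPM in WT cultures1 to WT4. Here replicate 1 was the highest library of each genotype. The log2 fold change was −0.11 (SE 0.06, 95% interval −0.24 to 0.02, edgeR adjusted p 0.542), the second lowest among the 7 genes after Brawnin. Ttc19 overlaps Ncor1 and Gm12275, and Lyrm7 overlaps Gm18818 and Gm31490. The strand setting of the counting is not given in the sources used here, and reads in such overlaps were left uncounted in the union mode or cannot be told apart.

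Across the 6 factors other than Brawnin, 4 were higher and 2 lower in KO, with a median log2 fold change of 0.02. The median of all tested genes was 0.01, and 53.4% of them were higher in KO. None of the 6 had an unadjusted p under 0.05 in the edgeR fit, against 10.5% of all tested genes.

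Levels of different genes were compared per length, as CPM per kilobase of the longest annotated transcript (RPKM). In WT the order was Uqcc2 (32.4 ± 18.2), Ttc19 (18.6 ± 3.31), Uqcc1 (16.9 ± 1.42), Bcs1l (10.4 ± 0.595), Uqcc3 (5.58 ± 2.97), Brawnin (4.12 ± 0.379) and Lyrm7 (4.05 ± 0.582), as mean ± SD of 4 libraries. The ranges of neighbours in this order overlapped, except between Uqcc1 and Bcs1l and between Bcs1l and Uqcc3. With these lengths Brawnin, at 3.70 to 4.58 RPKM in WT, overlapped both Lyrm7 and Uqcc3. The WT mean of Brawnin was above that of 33.8% of the 13636 tested genes that had an annotated coding transcript. In KO, Brawnin was at 1.103 to 1.883 RPKM and was the lowest of the 7 genes in all 4 libraries, against 1 of 4 WT libraries. In KO, Lyrm7 was at 3.63 to 4.86 RPKM and Uqcc3 at 2.70 to 7.54 RPKM, both without overlap with Brawnin. With the shortest annotated transcripts, Lyrm7 in WT was at 5.73 to 7.72 RPKM and no longer overlapped Brawnin, which was then the lowest of the 7 genes in 3 of 4 WT libraries and in all 4 KO libraries.

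The spread between cultures differed among the assembly factors. For Brawnin the SD in WT, 0.283 CPM, was close to the 0.270 CPM that counting error alone gives at these counts, and in KO it was 0.246 against 0.165 CPM. For Uqcc2 the SD was 9.12 CPM in WT cultures against 0.585 CPM from counting, and 7.21 against 0.611 CPM in KO. For Uqcc3 the SD was 2.46 CPM in WT cultures against 0.315 CPM from counting. For Ttc19 the SD was 11.3 CPM in WT against 1.24 CPM from counting, and 13.4 against 1.26 CPM in KO. For Lyrm7 it was 1.39 CPM in WT against 0.483 CPM from counting, and 1.23 against 0.507 CPM in KO. For Bcs1l it was 1.12 against 0.682 CPM in WT and 1.03 against 0.742 CPM in KO, and for Uqcc1 3.76 against 1.03 CPM in WT and 1.01 against 1.095 CPM in KO. Separate cultures can vary beyond counting error, and these values describe the members with no test.

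KO1 and WT1 were the lowest libraries for both Uqcc2 and Uqcc3. Their mean log2 CPM was lower than the mean of the other 6 libraries by −1.63 for Uqcc2 and −1.56 for Uqcc3. It was 0.53 higher for Ttc19 and 0.35 higher for Lyrm7, and differed by 0.09 for Brawnin, 0.02 for Bcs1l and −0.01 for Uqcc1. Both libraries moved in the same direction for Uqcc2, with KO1 at −1.39 against the other KO libraries and WT1 at −1.87 against the other WT libraries. The 7 assembly factors thus included genes on both sides of this difference, 1 library of which belongs to each genotype.

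The GC content of the transcripts moved with this difference. It was 58.8% for Uqcc2, 53.0% for Uqcc3, 52.7% for Brawnin, 51.4% for Bcs1l, 51.3% for Uqcc1, 44.7% for Ttc19 and 42.1% for Lyrm7. Over 13636 tested genes (83.8%) with an annotated coding transcript, the median difference of KO1 and WT1 from the other 6 libraries was 0.35 on the log2 scale up to 45% GC (3040 genes), 0.15 from 45% to 50% (3534 genes), −0.25 from 50% to 55% (3574 genes), −0.78 from 55% to 60% (2798 genes) and −1.15 above 60% (690 genes). Spearman's rho across genes, which are not independent replicates and share these 8 libraries, was −0.79. In the range from 50% to 55% GC, Brawnin, Uqcc1 and Bcs1l lay above the upper quartile of −0.02, and Uqcc3 lay below the lower quartile of −0.50. Uqcc2 lay below the lower quartile of its range, −1.12. The part of GC content in the values of the assembly factors was not tested.

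**Figure D3:**
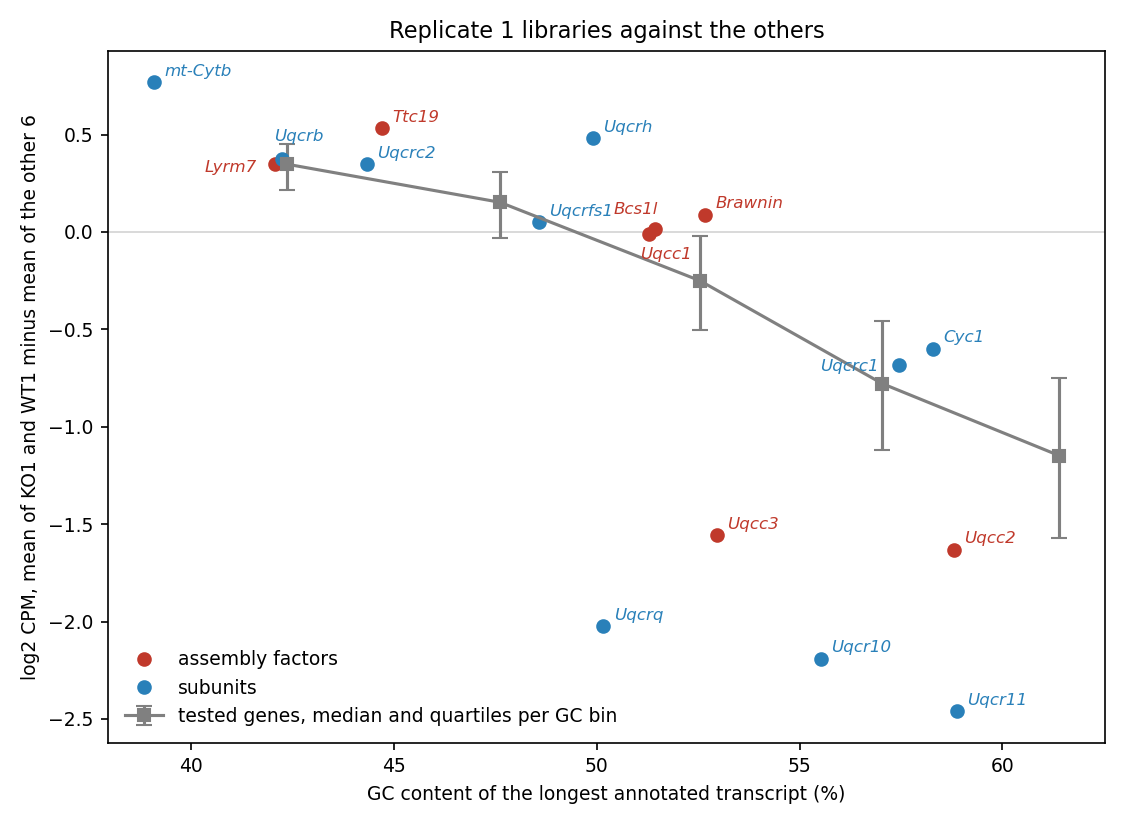
Mean log2 CPM of KO1 and WT1 minus the mean of the other 6 libraries (y axis) against the GC content of the longest annotated transcript (x axis, %), for assembly factors (red), complex III subunits (blue) and the median and quartiles of all tested genes in 5 GC ranges (grey). Uqcc2 and Uqcc3 lie at −1.63 and −1.56, Brawnin at 0.09, and the grey medians fall from 0.35 to −1.15.

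The subunits that these factors assemble were examined as a fixed list. All 10 were tested and none passed the adjusted threshold in edgeR, and 1 of the 10, Cyc1, had an unadjusted p under 0.05, as did 10.5% of all tested genes. DESeq2 and limma-voom, which called 1.29% and 0.0492% of all genes, called none of them either. In KO, 7 were higher and 3 lower, with a median log2 fold change of 0.08 against 0.01 for all tested genes. The CPM of each of the 10 overlapped between genotypes.

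The catalytic subunits are those that the assembly factors attend. Cytochrome c1 (Cyc1) was at 74.4 ± 12.985 CPM in KO cultures and 65.8 ± 15.05 CPM in WT cultures, with a log2 fold change of 0.17 (95% interval 0.04 to 0.30, unadjusted p 0.0164, edgeR adjusted p 0.388). The Rieske protein (Uqcrfs1), the substrate of Bcs1l and Lyrm7, was at 57.8 ± 3.55 CPM in KO cultures and 52.7 ± 3.79 CPM in WT cultures, with a log2 fold change of 0.10 (95% interval −0.06 to 0.26, edgeR adjusted p 0.655). Cytochrome b (mt-Cytb), the subunit that Uqcc1, Uqcc2 and Uqcc3 attend, was at 11465 ± 3348 CPM in KO cultures and 10466 ± 3471 CPM in WT cultures, with a log2 fold change of 0.08 (95% interval −0.24 to 0.40, edgeR adjusted p 0.874). Of these 3 intervals, that of Cyc1 alone did not hold 0, and Cyc1 failed the adjustment over all genes.

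The core proteins Uqcrc1 and Uqcrc2, which face the matrix, had log2 fold changes of 0.11 and 0.07 (edgeR adjusted p 0.555 and 0.748). Among the small supernumerary subunits, Uqcrb and Uqcrh had log2 fold changes of 0.09 and 0.12 (edgeR adjusted p 0.782 and 0.509). Uqcrq, Uqcr10 and Uqcr11 had values of −0.19, −0.19 and −0.18 (edgeR adjusted p 0.785, 0.476 and 0.641). The last 3 were also the subunits with the largest drop in KO1 and WT1 among the 10. Uqcr11 was at 2.67 CPM in KO1 and 3.04 CPM in WT cultures1, and at 9.31 to 25.1 CPM in the other 6 libraries, a difference of −2.46 on the log2 scale. The difference was −2.19 for Uqcr10 and −2.02 for Uqcrq, larger in size than for Uqcc2 or Uqcc3.

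**Figure D4:**
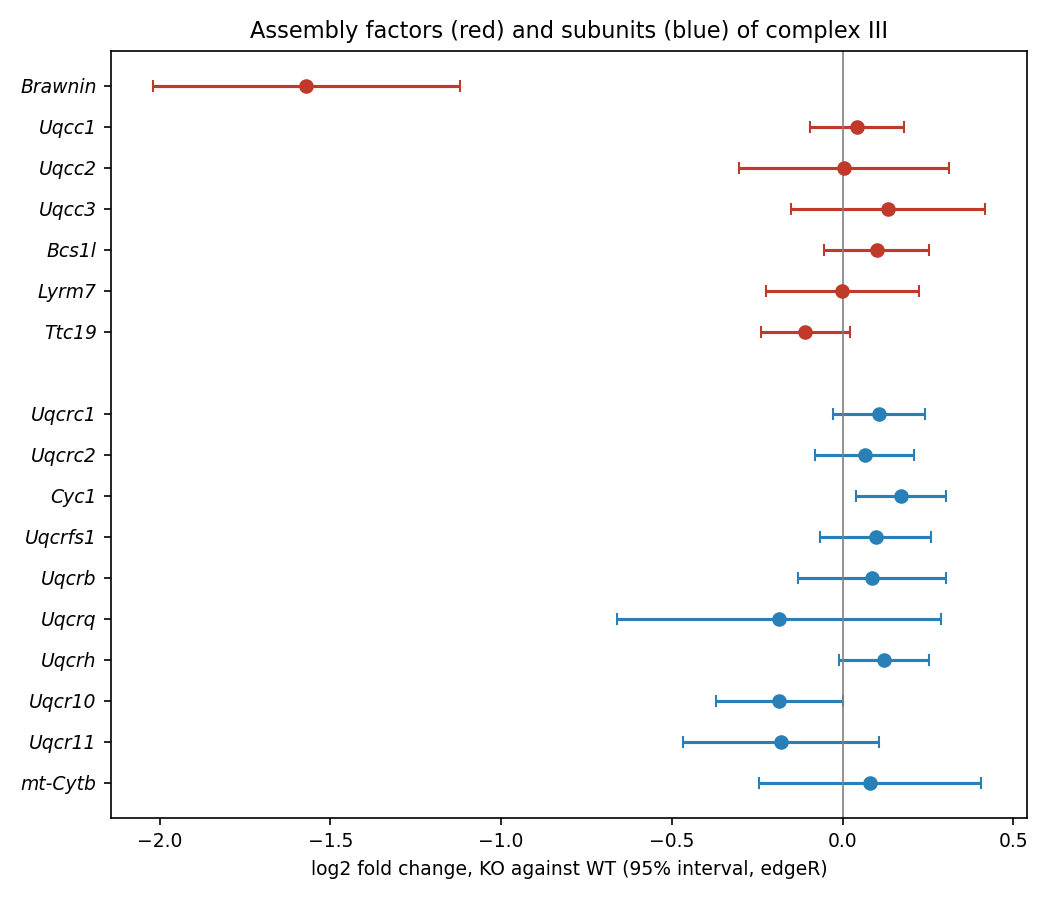
Log2 fold change, KO against WT, with 95% intervals from edgeR (x axis) for the 7 assembly factors (red) and the 10 complex III subunits (blue). Brawnin lies at −1.57, and the other 16 genes lie between −0.19 and 0.17.

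Other genes of the same pathway were read from 5 more fixed lists. None of their genes passed the adjusted threshold in edgeR, DESeq2 or limma-voom with the surrogate variable, and over these lists and the subunits together 5 of 72 distinct tested genes (6.94%) had an unadjusted p under 0.05 in edgeR, against 10.5% of all tested genes. Among other complex III maturation genes (7 tested, median log2 fold change 0.02), Pmpca, a subunit of the protease that removes import sequences, and Ociad2 had the smallest p, with log2 fold changes of 0.17 and 0.17 (edgeR adjusted p 0.365 and 0.464). Among supercomplex and cytochrome c genes (9 tested, median 0.10), Phb2, a prohibitin, and Stoml2, a scaffold protein of the inner membrane, had values of 0.10 and 0.13 (edgeR adjusted p 0.554 and 0.561). Neither list held a gene past the adjusted threshold.

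Among complex I assembly factors (18 tested, median 0.04), Tmem186 and Ecsit had log2 fold changes of 0.11 and 0.08 (edgeR adjusted p 0.552 and 0.687). Among complex IV assembly factors (21 tested, median 0.06), Cox19, which acts in copper delivery, and Cox10, which makes heme O, had values of 0.15 and 0.21 (edgeR adjusted p 0.475 and 0.492). Brawnin belongs by size to the small mitochondrial proteins, of which 10 others were tested (median 0.01). There Atp5mk, a small subunit of ATP synthase, and Micos13, a subunit of the complex that shapes cristae, had values of −0.45 and 0.14 (edgeR adjusted p 0.413 and 0.516).

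The genes with a pattern most like that of Brawnin over the 8 libraries were not assembly factors. Likeness was the root mean square difference of log2 CPM centred on each gene's mean, over 8 libraries, and these values describe the libraries with no test. Among the closest genes were Prlr, the prolactin receptor (0.268), Tdg, a DNA glycosylase (0.319), and ENSMUSG00000110959 and ENSMUSG00000107118 (0.328 and 0.362), for which the reference tables gave no symbol. The nearest of the other assembly factors was Ttc19, at 0.798 and rank 3115.

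Tdg is the gene beside Brawnin on chromosome 10, with a gap of 6.59 kb (GRCm38), and Nuak1 itself lies 1.75 Mb from Brawnin on the same chromosome. Tdg was at 2.46 ± 0.390 CPM in KO cultures and 8.37 ± 0.532 CPM in WT cultures, with a log2 fold change of −1.81 (SE 0.13, edgeR adjusted p 0.000335). Reads that Tdg may share with other loci were not examined here. Prlr, on chromosome 15, had a log2 fold change of −1.40 (SE 0.26, edgeR adjusted p 0.188). Whether the place of Brawnin near the targeted gene bears on its level was not tested.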

How the data were processed

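The authors deposited raw read counts per gene for 8 libraries. According to the study's methods and the submitters' processing notes, reads were trimmed with cutadapt 1.10, mapped to mm10 with STAR 2.5.3a and counted by HTSeq 0.6.1p1 in union mode on Ensembl release 92, from uniquely aligned reads. Groups came from the labels.

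Counts were tested with edgeR 4.0.16 (filterByExpr, TMM, robust quasi-likelihood test) with 1 surrogate variable from sva 3.50.0, and p-values were adjusted by Benjamini-Hochberg over all 16272 tested genes, with a threshold of 0.05. Intervals are 95% intervals of the fit. The fit was tested on a single simulated data set, in which the share of false calls was above the threshold. log2 CPM used a prior count of 1. CPM were counts scaled to a library total of 1000000, without TMM. The nearest libraries of a genotype differed by a chi-square of at least 20.0 per degree of freedom, so none was counted as a duplicate. Alternatives were other surrogate variables, terms, scalings and filters, DESeq2 1.42.0, limma 3.58.1, each lane alone, and libraries left out.

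The annotation for transcript length, GC content and shared windows was of another build (NCBIM37), so no position was taken from it; positions are those of RefSeq genes on GRCm38. Named genes were the 7 assembly factors, Nuak1, the complex III subunits, the 2 genes with the smallest p in each other list with any past the threshold, and the 5 genes most like Brawnin, 1 of which is not reported here. The assembly factors and lists were chosen with earlier results of these data known.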

Additional observations from a re-analysis of the deposited data

How the results depend on the processing

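Brawnin lost its call under 12 of the 22 alternatives. It kept its direction under all 22, which is no separate result, since its values did not overlap between genotypes. Its log2 fold change was −1.57 without a surrogate variable, −1.58 with lane as a term, −1.14 with the strain label as a term, −1.38 on lane A alone and −1.49 without KO1 and WT1, all with an adjusted p above 0.05. Leaving out 1 library gave −1.79 to −1.45. In these settings the number of assembly factors called was 0, against 1 in the reported fit, and it was 0 to 1 when 1 library was left out. Over all genes, 8 passed in the reported fit, against 4 without a surrogate variable, 17 with 2 surrogate variables, 4 with lane as a term, 1 with the strain label, 49 without the filter, 169 in DESeq2, 0 on lane A alone, 99 on lane B alone and 3 without KO1 and WT1; leaving out 1 library gave 3 to 114, the highest without WT3. The cause of these changes was not tested.

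The replicate numbers were used as a block in an alternative. Same-numbered libraries deviated together for number 1 (correlation 0.788) but not for all numbers (0.00934, 0.237 and −0.0110), and only KO1 correlated best with its own number, so the numbers were not taken to pair the samples, although KO1 and WT1 deviated together and shared a lane. With the replicate block, 3 genes passed, no assembly factor among them (0), and the log2 fold change was −1.58 for Brawnin, −0.053 for Uqcc2 and 0.011 for Lyrm7, the last 2 reversed from 0.0051 and −0.00082.

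Values near 0 changed sign. Uqcc2 was 0.50 with the strain label as a term, −0.12 without a surrogate variable, −0.12 with lane as a term, −0.0091 without the filter, −0.033 in limma-voom, −0.055 on lane A, −0.19 on lane B, −0.16 without KO1 and WT1, and −0.093 to 0.074 with 1 library left out. Uqcc3 was 0.28 with the strain label, −0.0034 without a surrogate variable, −0.015 with lane as a term, −0.15 on lane A and −0.056 without KO1 and WT1. Lyrm7 was 0.0089 without a surrogate variable, 0.055 with 2, 0.013 with lane as a term, 0.13 with the strain label, 0.043 with library totals, 0.0022 without the filter, 0.046 on lane B, 0.028 without KO1 and WT1, and −0.052 to 0.053 with 1 library left out. With the strain label Uqcrq was 0.59, Uqcr10 0.14, Uqcr11 0.42 and mt-Cytb −0.091. On lane B Uqcrc2 was −0.0068 and mt-Cytb −0.14, and without 1 library mt-Cytb was −0.035 to 0.23. None of these passed the threshold, and no gene of the 6 other lists did under any alternative.

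With the shortest annotated transcript, WT means were 282 RPKM for Uqcc1 (a transcript of 159 bases), 76.6 for Ttc19, 13.2 for Bcs1l and 6.44 for Lyrm7, so the order of members by length depends on the transcript. The planned sum of Brawnin and its pseudogene was not run, since no row of the count table could be matched to the pseudogene. Brawnin had 170 counts over all KO libraries and 564 over all WT libraries, which limits its precision.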

Other observations

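In the 6 other lists, the CPM of 4 genes did not overlap between the genotypes although they failed the adjusted threshold, and 2 of them, Cox16 and Pet100, were named after their values were seen. Atp5mk, like Brawnin a small protein of the inner membrane, was at 1.09 ± 0.0566 CPM in KO cultures and 1.47 ± 0.185 CPM in WT cultures (SD, n = 4 each; edgeR adjusted p 0.413), and it was lower in KO in all 22 alternatives, with log2 fold changes from −0.53 to −0.41. Pmpca was at 147 ± 6.54 CPM in KO cultures and 128 ± 7.27 CPM in WT cultures (edgeR adjusted p 0.365). Pmpca was higher in KO under all alternatives, with log2 fold changes from 0.11 to 0.21. Since the CPM of Atp5mk and Pmpca did not overlap between genotypes, their constant direction over these refits is no separate result. Cox16, an assembly factor of complex IV, was at 0.249 ± 0.0138 CPM in KO cultures and 0.401 ± 0.181 CPM in WT cultures, with 9 to 12 counts in each KO library and 9 to 32 in each WT library (log2 fold change −0.69, edgeR adjusted p 0.501). Pet100, another such factor, was at 15.2 ± 0.733 CPM in KO cultures and 13.4 ± 0.625 CPM in WT cultures (edgeR adjusted p 0.560). CPM did not overlap for 2.4% of all tested genes.

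Of the genes whose pattern was most like that of Brawnin, Tdg passed the adjusted threshold in 20 of 22 alternatives and Prlr in 3, against 10 for Brawnin itself. Both were chosen for a pattern like that of Brawnin, so their direction is no separate result.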
